A study of Mus musculus with 6 samples.

Results

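The IL-6 family of cytokines was examined in mouse colon through 10 genes, taken from the deposited expression table by gene symbol and not by their values. They were the ligands *Il6*, *Osm*, *Lif* and *Il11*, the receptor chains *Il6ra*, *Osmr*, *Lifr*, *Il11ra1* and *Il6st*, and the feedback gene *Socs3*. All 10 were among the 18477 genes of the table, and all 10 passed the filter on low counts that left 14579 genes for testing. The mice were male C57BL/6 animals of 6 to 8 weeks, and both groups drank 2% dextran sulfate sodium (DSS), a polymer that injures the colonic epithelium and causes colitis, from day 8 to day 14. The DSS group received phosphate-buffered saline by gavage each day for 14 days, and the DSS+BV group received the gut bacterium *Bacteroides vulgatus* in its place. RNA of colon tissue was sequenced from 3 mice of each group, read here as 1 library per mouse because the authors give n = 3 per group. The comparison asked what differed in the inflamed colon when *B. vulgatus* was given. Both groups had colitis induced, so the values below are set against DSS alone and not against a healthy colon.

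Cytokines of the IL-6 family signal through receptor complexes that contain gp130, the protein encoded by *Il6st*. IL-6 and IL-11 first bind their own receptor chains (IL6RA and IL11RA), whereas LIF and OSM assemble gp130 with LIFR or OSMR. The complexes activate JAK kinases and STAT3, and *Socs3*, a STAT3 target, encodes an inhibitor that binds gp130 and limits the signal. In the intestine the family is known for roles in acute-phase induction, epithelial repair and the response of stromal cells to inflammation.

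Promoter windows are shown for *Il6* and *Il11*, the ligands with the lowest DSS+BV level relative to DSS, for *Osmr* and *Il6st*, the receptor chains whose groups did not overlap, and for *Socs3*. Each window runs 5′ to 3′ from 250 bases before to 50 bases after a RefSeq start on GRCm38.p6, and 9 of the 10 genes had 12 windows between them. *Osm* had no entry. Capitals mark matches, on either strand, to TTCNNNGAA (the STAT motif), TGANTCA (the AP-1 motif) or the NF-kB motif. The windows are *Il6* at chr5:30012864-30013163 on the plus strand, the second *Il11* start at chr7:4778092-4778391 on the minus strand, *Osmr* at chr15:6874264-6874563 on the minus strand, *Il6st* at chr13:112463820-112464119 on the plus strand and *Socs3* at chr11:117969317-117969616 on the minus strand.
Il6: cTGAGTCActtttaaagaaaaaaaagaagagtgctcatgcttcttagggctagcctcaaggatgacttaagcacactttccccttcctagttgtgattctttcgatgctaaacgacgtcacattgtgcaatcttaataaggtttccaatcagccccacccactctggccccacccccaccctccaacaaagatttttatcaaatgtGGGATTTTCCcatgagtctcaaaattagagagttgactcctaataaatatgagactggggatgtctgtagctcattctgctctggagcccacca
Il11: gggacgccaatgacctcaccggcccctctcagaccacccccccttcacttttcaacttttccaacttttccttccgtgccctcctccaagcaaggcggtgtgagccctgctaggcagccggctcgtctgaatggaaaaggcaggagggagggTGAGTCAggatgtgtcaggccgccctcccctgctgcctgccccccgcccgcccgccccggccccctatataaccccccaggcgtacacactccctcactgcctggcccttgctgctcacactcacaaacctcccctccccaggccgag
Osmr: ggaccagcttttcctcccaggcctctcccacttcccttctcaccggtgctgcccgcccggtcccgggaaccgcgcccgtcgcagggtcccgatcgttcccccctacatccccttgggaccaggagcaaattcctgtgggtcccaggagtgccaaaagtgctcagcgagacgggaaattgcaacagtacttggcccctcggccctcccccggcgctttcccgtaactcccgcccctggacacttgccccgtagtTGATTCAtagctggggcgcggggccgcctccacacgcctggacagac
Il6st: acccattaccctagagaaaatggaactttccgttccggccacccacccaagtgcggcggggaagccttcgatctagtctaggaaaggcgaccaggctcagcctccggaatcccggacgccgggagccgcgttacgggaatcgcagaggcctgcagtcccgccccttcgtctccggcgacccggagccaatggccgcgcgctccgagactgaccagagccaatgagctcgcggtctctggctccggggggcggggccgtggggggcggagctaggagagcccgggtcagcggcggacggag
Socs3: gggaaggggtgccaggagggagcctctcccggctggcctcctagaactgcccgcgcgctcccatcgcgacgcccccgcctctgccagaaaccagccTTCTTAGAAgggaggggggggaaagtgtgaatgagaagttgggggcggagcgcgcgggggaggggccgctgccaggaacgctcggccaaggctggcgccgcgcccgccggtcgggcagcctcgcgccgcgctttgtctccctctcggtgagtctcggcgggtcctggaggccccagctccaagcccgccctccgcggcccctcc

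Counting the base before the start as -1, the *Il6* window held the AP-1 letters from -249 and the NF-kB letters from -44. AP-1 letters also began at -98 in the *Il11* window, at -228 in that of *Lif* and at 4, inside the transcript, in that of *Osmr*. They were present in 4 of the 12 windows of the family, against 7.81% of the 32851 RefSeq windows of the same length. The STAT letters occurred in 1 of the 12, that of *Socs3* from -154, against 8.30% of all windows. This *Socs3* window lies wholly within the gene span given below, as do the *Osmr* window and the second *Il11* window. The starts used for them are therefore not at the outer ends of those genes, and the STAT letters lie inside the *Socs3* span. NF-kB letters occurred in the *Il6* window alone of the 12, against 4.51%. TATAAA was in 0 of the 12 windows and in 13.6% of all. The *Il6st* window, the first *Il11* window and every window of *Il6ra*, *Lifr* and *Il11ra1* held none of the 4 motifs.

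The 6 libraries held between 15293276 and 17254343 expected counts, the fractional read counts assigned to genes. Gene positions below are on GRCm38.p6. Levels are given as CPM, the count of a gene scaled to a common library total after TMM adjustment. On the log2 CPM of all tested genes, average-linkage clustering did not separate the groups: DSS 1, DSS 3 and DSS+BV 1 formed one branch and DSS 2, DSS+BV 2 and DSS+BV 3 the other. Results that rest on DSS 2 or DSS+BV 1 are therefore also given without them.

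All 10 genes had a lower mean in DSS+BV than in DSS, and none passed the test. In edgeR's quasi-likelihood test a gene was called at a Benjamini-Hochberg adjusted p under 0.05 with an absolute log2 fold change over 1, and 0 of the 10 were called, against 0.0892% of tested genes called lower and 0% called higher. The median log2 fold change of the 10 was -0.96, against -0.01 over all tested genes, of which 51.5% lay below 0. The groups did not overlap for 5 of the 10 (*Il6*, *Osm*, *Il11*, *Osmr* and *Il6st*), each lower in every DSS+BV mouse, against 11.3% of tested genes. An unadjusted p under 0.05 with a lower level was found for 6 of the 10, those 5 and *Socs3*, against 9.12% of tested genes. DESeq2, run as an alternative, called 3 of the 10 (*Il6*, *Osm* and *Il11*), against 1.57% of its 17887 genes called lower. Those 17887 were not filtered and include genes with too few reads for the edgeR test, so the 2 shares have unlike bases.

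**Figure D1:**
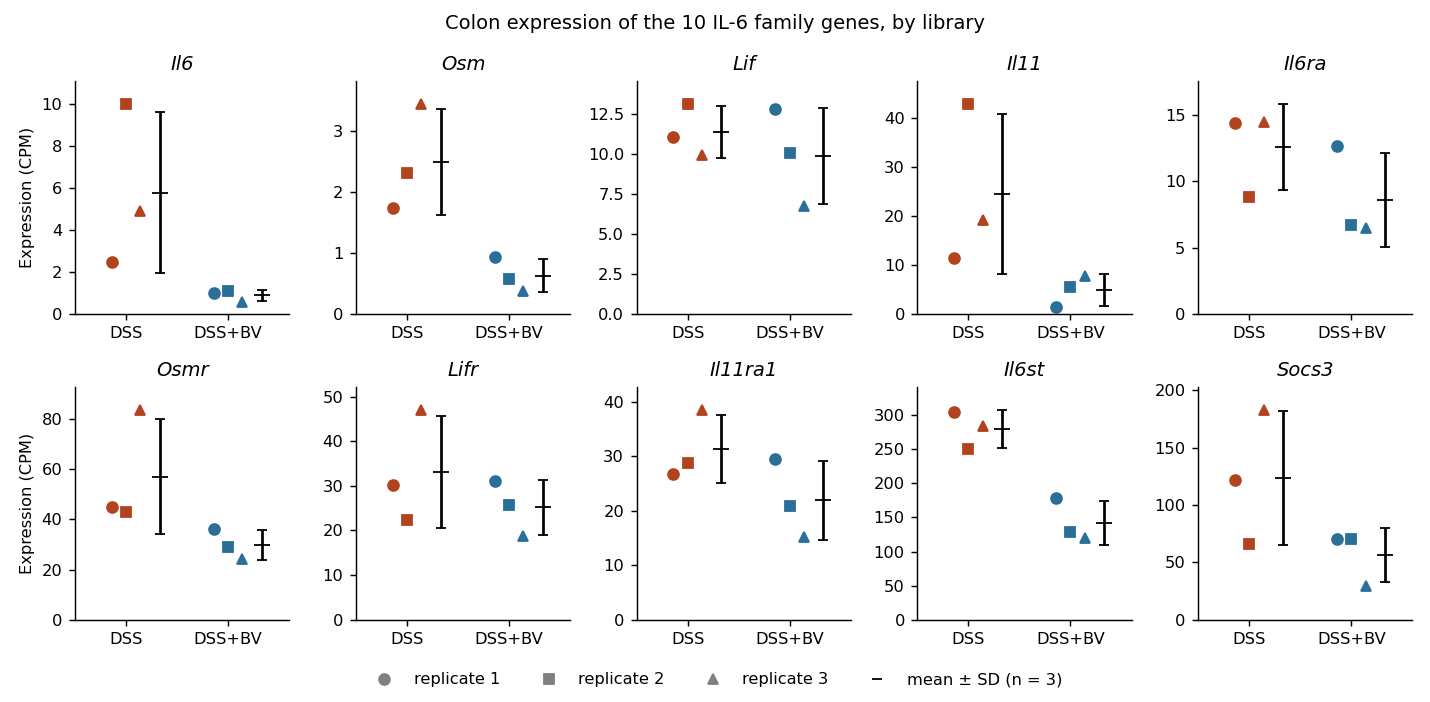
Level of each of the 10 IL-6 family genes in CPM (linear axes from 0) in the 3 DSS and 3 DSS+BV libraries, with the mean and SD beside the points. *Il6*, *Osm*, *Il11*, *Osmr* and *Il6st* were lower in all 3 DSS+BV libraries than in any DSS library, and the other genes overlapped.

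Of the ligands, *Il6* (Entrez 16193, chr5:30013114-30019975) encodes the founding cytokine of the family, an inducer of the acute-phase response. Its level was 2.45, 10.01 and 4.89 CPM in DSS 1, 2 and 3 and 0.989, 1.08 and 0.569 CPM in DSS+BV 1, 2 and 3. The DSS mice thus varied widely among themselves, DSS 2 standing highest, while the DSS+BV mice lay close together below all of them. The mean was 5.79 ± 3.86 CPM in DSS against 0.880 ± 0.274 CPM in DSS+BV (SD, n = 3 each), with a log2 fold change of -2.71 (SE 0.59). The adjusted p was 0.222 in edgeR and 0.00201 in DESeq2. Only 9 to 17 reads per DSS+BV library stood behind these levels, against 41 to 161 in DSS. Without DSS 2 the log2 fold change was -2.05.

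*Osm* (Entrez 18413, chr11:4236785-4241026) encodes oncostatin M, which is made mainly by myeloid cells and T cells. It measured 1.74, 2.30 and 3.44 CPM in the DSS mice and 0.923, 0.573 and 0.379 CPM in the DSS+BV mice. The lowest DSS library was above the highest DSS+BV library, at 29 against 14 reads. Means were 2.49 ± 0.866 and 0.625 ± 0.276 CPM (SD, n = 3 each), the log2 fold change being -1.98 (SE 0.47) with an adjusted p of 0.245 in edgeR and 0.0292 in DESeq2. Leaving out any 1 library kept the log2 fold change between -2.36 and -1.68.

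*Il11* (Entrez 16156, chr7:4772373-4782907, minus strand) encodes a cytokine produced largely by fibroblasts and other stromal cells. It was at 11.4, 42.8 and 19.2 CPM in DSS against 1.32, 5.48 and 7.78 CPM in DSS+BV. The groups stood apart although each was spread widely, DSS 2 again being the highest library and DSS+BV 1 the lowest. The log2 fold change was -2.33 (SE 0.73), from 24.5 ± 16.3 to 4.86 ± 3.27 CPM (SD, n = 3 each), with an adjusted p of 0.332 in edgeR and 0.0291 in DESeq2. It was -1.65 without DSS 2, and -1.19 with an edgeR adjusted p of 0.150 without both DSS 2 and DSS+BV 1.

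*Lif* (Entrez 16878, chr11:4257568-4272514) encodes leukaemia inhibitory factor and lies 16.5 kb from *Osm*. Unlike its neighbour it overlapped between groups, at 11.1, 13.1 and 9.96 CPM in DSS against 12.8, 10.1 and 6.76 CPM in DSS+BV. DSS+BV 1 was above 2 of the DSS mice. The log2 fold change was -0.21 (SE 0.28, adjusted p = 0.786 in edgeR), and its sign turned to 0.0097 without DSS+BV 3. The 4 ligands thus comprised 3 whose groups did not overlap and 1 whose groups did.

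**Figure D2:**
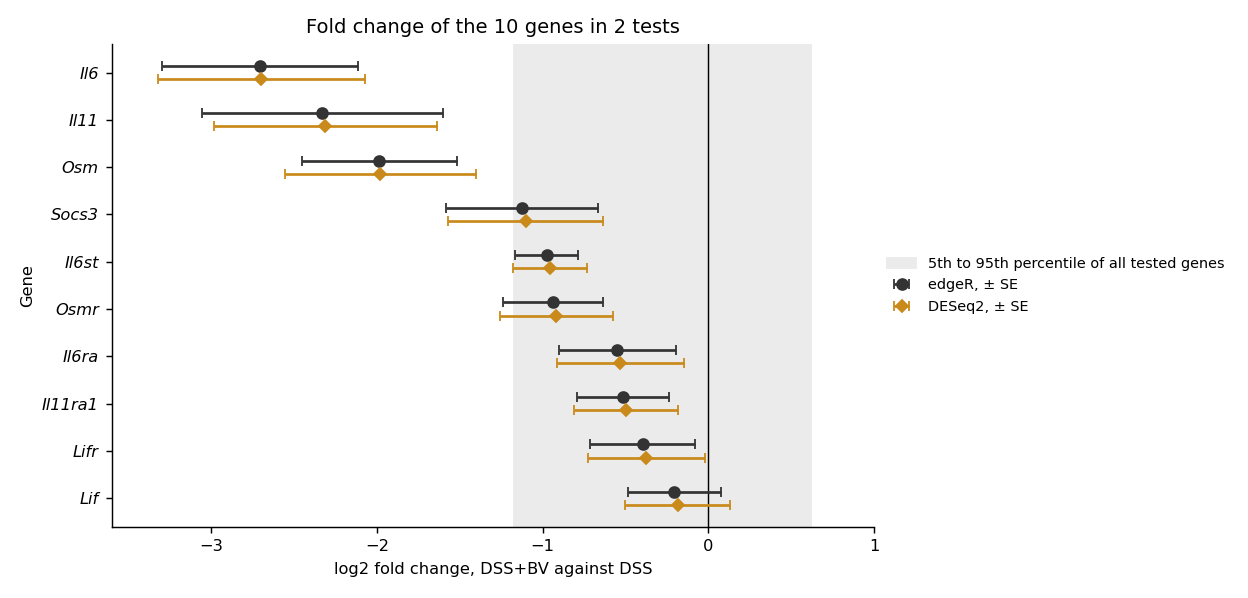
Log2 fold change of DSS+BV against DSS for each of the 10 genes in edgeR and in DESeq2, with bars of 1 SE on either side and the 5th to 95th percentile of all tested genes (-1.17 to 0.62) shaded. *Il6*, *Il11* and *Osm* lay below the shaded range in both tests and the other 7 genes within it.

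Among the receptor chains, *Il6st* (Entrez 16195, chr13:112464070-112506860) encodes gp130, the chain shared by every ligand above. It was at 304, 250 and 283 CPM in DSS against 178, 128 and 119 CPM in DSS+BV. Each group was tight relative to the gap between them, and every DSS+BV mouse was lower. The means were 279 ± 27.4 and 142 ± 31.8 CPM (SD, n = 3 each), the log2 fold change being -0.98 (SE 0.19). Its unadjusted edgeR p of 0.00165 was the smallest of the 10 genes, and the adjusted p was 0.189. DESeq2 gave an adjusted p of 0.00230 at a log2 fold change of -0.96, inside the fold threshold. Without DSS 2 and DSS+BV 1, *Il6st* was the 1 gene of the 10 that edgeR called, at -1.22 with an adjusted p of 0.0338, but 2.27% of all tested genes were then called lower.

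*Osmr* (Entrez 18414, chr15:6813568-6874968, minus strand) encodes the OSM-specific chain that pairs with gp130. It was at 44.8, 42.8 and 83.3 CPM in DSS against 36.3, 28.9 and 24.1 CPM in DSS+BV. DSS 3 stood far above the other libraries, and the remaining DSS mice were close to DSS+BV 1. The log2 fold change was -0.94 (SE 0.30, adjusted p = 0.340 in edgeR and 0.136 in DESeq2), and -0.56 without DSS 3. *Lifr* (Entrez 16880, chr15:7090610-7197489), the LIF receptor chain, lies 216 kb from *Osmr* and overlapped between groups, with 22.4 to 46.9 CPM in DSS against 18.8 to 31.1 CPM in DSS+BV. Its log2 fold change was -0.40 (SE 0.32, edgeR adjusted p = 0.632), and -0.06 without DSS 3.

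*Il6ra* (Entrez 16194, chr3:89869324-89913196, minus strand), the chain that binds IL-6, ranged from 8.83 to 14.5 CPM in DSS and from 6.45 to 12.7 CPM in DSS+BV. Its groups overlapped through DSS 2 and DSS+BV 1, with a log2 fold change of -0.55 (SE 0.35, edgeR adjusted p = 0.554), or -0.92 without DSS+BV 1. *Il11ra1* (Entrez 16157, chr4:41760443-41769473), the IL-11 receptor chain, spanned 26.7 to 38.4 CPM in DSS against 15.2 to 29.5 CPM in DSS+BV, a log2 fold change of -0.52 (SE 0.28, edgeR adjusted p = 0.494), or -0.78 without DSS+BV 1. Its counts are uncertain because reads can be shared with the near-identical paralog *Il11ra2*, which was assigned at most 2.93 counts in any library. Of the 5 receptor chains, 2 had groups that did not overlap.

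*Socs3* (Entrez 12702, chr11:117966079-117970336, minus strand), the feedback gene, was at 122, 66.1 and 183 CPM in DSS against 70.0, 70.5 and 29.6 CPM in DSS+BV. The groups overlapped because DSS 2 lay below both DSS+BV 1 and DSS+BV 2. The log2 fold change was -1.12 (SE 0.46), with an unadjusted edgeR p of 0.0457 and an adjusted p of 0.394, and DESeq2 gave an adjusted p of 0.223. It ran from -1.42 without DSS 2 to -0.73 without DSS 3.

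The libraries did not rank alike across the family. DSS 3 was the highest of the 6 libraries for 6 genes (*Osm*, *Il6ra*, *Osmr*, *Lifr*, *Il11ra1* and *Socs3*), DSS 2 for 3 (*Il6*, *Lif* and *Il11*) and DSS 1 for 1 (*Il6st*). DSS+BV 3 was the lowest library for 9 of the 10 genes, with *Il11* the exception. Without DSS 2 and DSS+BV 1 the groups did not overlap for 9 of the 10 genes, *Lif* being the exception, but the same was then true, in the lower direction, of 29% of all tested genes. Those 2 libraries are the ones that clustered with the opposite group, so the count without them describes 4 libraries that the clustering had already parted. In those 4 libraries the log2 fold change was -2.13 for *Il6*, -2.41 for *Osm*, -0.29 for *Lif*, -1.11 for *Il6ra*, -1.26 for *Osmr*, -0.77 for *Lifr*, -0.83 for *Il11ra1* and -1.59 for *Socs3*. None of these 8 was called, with edgeR adjusted p from 0.0838 for *Il6ra* to 0.676 for *Lif*.

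**Figure D3:**
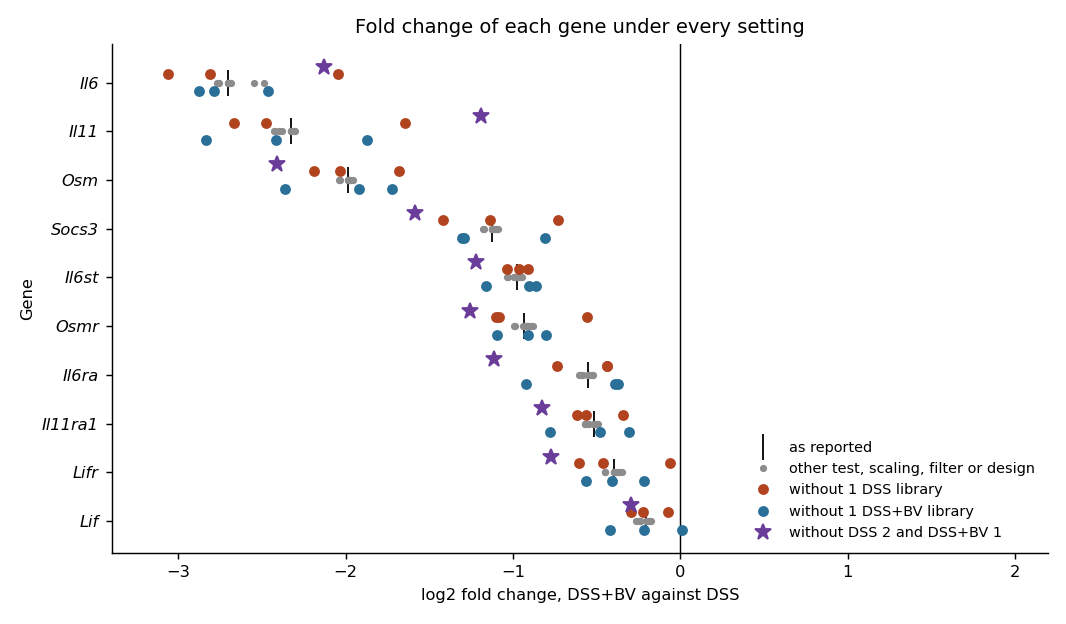
Log2 fold change of DSS+BV against DSS for the 10 genes as reported, under another test, scaling, filter or design, without each library in turn, and without DSS 2 and DSS+BV 1 together. *Il6* moved to -2.05 and *Il11* to -1.65 without DSS 2, and *Lif* passed 0 without DSS+BV 3.

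Divided by exon length, the levels in DSS were ordered *Socs3* (48.4 CPM per kb), *Il6st* (25.4), *Il11ra1* (12.5), *Il11* (11.8), *Osmr* (10.4), *Lifr* (3.19), *Lif* (2.81), *Il6* (2.38), *Il6ra* (1.46) and *Osm* (1.096). Of the 9 pairs of neighbours in that order, only *Il6st* over *Il11ra1* and *Osmr* over *Lifr* had ranges that did not overlap. In DSS+BV, *Il11* at 2.33 CPM per kb stood below *Osmr* (5.42), *Lif* (2.44) and *Lifr* (2.43), and *Il6* at 0.363 stood below *Il6ra* (0.995). *Socs3* (22.2) and *Il6st* (12.9) remained at the top and *Osm* (0.275) at the bottom, and in this group only *Osmr* over *Lif* and *Il6ra* over *Il6* were neighbours with ranges apart. With the length of the longest transcript, the order was the same in DSS, and in DSS+BV only *Lif*, *Lifr* and *Il11* traded places.

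Other genes of the pathway were taken from lists by role. Of 68 such genes, 66 were in the table and 64 were tested, 48 with a log2 fold change below 0 and 16 above, with a median of -0.27. edgeR called 2, both lower (*Timp1* and *Serpina3n*), against 0.0892% of all tested genes, and 17 were lower at an unadjusted p under 0.05, against 9.12%. Groups did not overlap for 20 of the 64 in the lower direction, against 11.3% of all tested genes, and for 1 (*Cish*) in the higher direction, against 6.37%.

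None of the remaining ligands and receptors of the family passed the test. Of 5 other ligands tested, 3 were lower and 2 higher with a median log2 fold change of -0.21, and 0 had groups apart. *Clcf1*, a ligand of the CNTF receptor, had -0.69 and the IL-27 subunit gene *Ebi3* had -0.21 (edgeR adjusted p = 0.658 and 0.908). *Il31ra*, the IL-31 receptor, was at 1.02, 0.933 and 0.699 CPM in DSS against 0.0660, 0.573 and 0.316 CPM in DSS+BV. Its groups did not overlap (log2 fold change -1.44, SE 0.65, edgeR adjusted p = 0.426), but no library held more than 17 of its reads. *Cntfr* and *Il27ra* had log2 fold changes of -0.28 and -0.54. *Adam10* and *Adam17*, proteases that shed IL6RA from the cell surface, both had -0.11.

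Signalling components had medians close to that of all tested genes. Over 13 kinases, STATs and adaptors the median log2 fold change was -0.07, with 10 lower and 3 higher. Groups were apart in the lower direction for 2 of the 13, near the 11.3% of all tested genes. *Stat3*, the main transcription factor of the pathway, was at 292 ± 44.3 CPM in DSS against 228 ± 19.1 CPM in DSS+BV (SD, n = 3 each), the log2 fold change being -0.36 (SE 0.16, edgeR adjusted p = 0.427) with DSS 2 just below DSS+BV 1. *Stat5a* and *Stat5b* had -0.51 and -0.22 (edgeR adjusted p = 0.399 and 0.536). The 8 negative regulators other than *Socs3* had a median of -0.03, with 4 lower and 4 higher. *Cish*, a STAT5 target that inhibits cytokine receptors, was at 11.3, 12.4 and 10.5 CPM in DSS and higher in every DSS+BV mouse, at 20.6, 16.5 and 13.7 CPM (log2 fold change 0.57, SE 0.21, edgeR adjusted p = 0.371). *Socs2* had 0.36 and *Ptpn1*, a phosphatase that acts on JAK kinases, -0.34.

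Genes known to respond to STAT3 or gp130 had a median log2 fold change of -0.80 over 26 genes, of which 19 were lower and 7 higher. Groups were apart in the lower direction for 12 of them, against 11.3% of all tested genes. *Timp1*, an inhibitor of matrix metalloproteinases, fell from 33.9, 35.9 and 43.6 CPM to 7.39, 7.96 and 6.70 CPM (log2 fold change -2.36, SE 0.18, edgeR adjusted p = 0.0179). *Serpina3n*, an acute-phase protease inhibitor, fell from 939 ± 250 to 178 ± 28.5 CPM (SD, n = 3 each; log2 fold change -2.40, SE 0.25, edgeR adjusted p = 0.0424). These were the 2 calls, against 0.0892% of all tested genes called lower, and neither was called when any 1 library was left out. *Lcn2*, encoding the iron-sequestering protein lipocalin-2, was at 35.6 to 80.2 CPM in DSS against 3.54 to 8.51 CPM in DSS+BV, a log2 fold change of -3.25 (edgeR adjusted p = 0.0833). The list spanned -3.71 for *Saa3*, an acute-phase apolipoprotein, to 1.45 for *Reg3b*, an antibacterial lectin. DESeq2 called 10 of the 26, all lower, against 1.57% of its 17887 genes called lower.

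Stromal genes known to respond to OSM were lower in 9 of 9, with a median log2 fold change of -1.16. Groups did not overlap for 5, against 11.3% of all tested genes in the lower direction. edgeR called 0 and DESeq2 called 4, against 0.0892% and 1.57% of the genes of each test called lower. *Ccl2*, the monocyte chemoattractant, was at 10.6, 27.2 and 21.02 CPM in DSS against 3.50, 3.95 and 3.73 CPM in DSS+BV (log2 fold change -2.39, SE 0.37, edgeR adjusted p = 0.123). *Selp*, the endothelial adhesion molecule P-selectin, had -2.27 (edgeR adjusted p = 0.134) and the alarmin gene *Il33* -1.67 (edgeR adjusted p = 0.144), each lower in every DSS+BV mouse. *Ccl2* and *Icam1* are on both this list and the preceding one, and *Pdpn* (-1.16) is also on the fibroblast marker list.

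**Figure D4:**
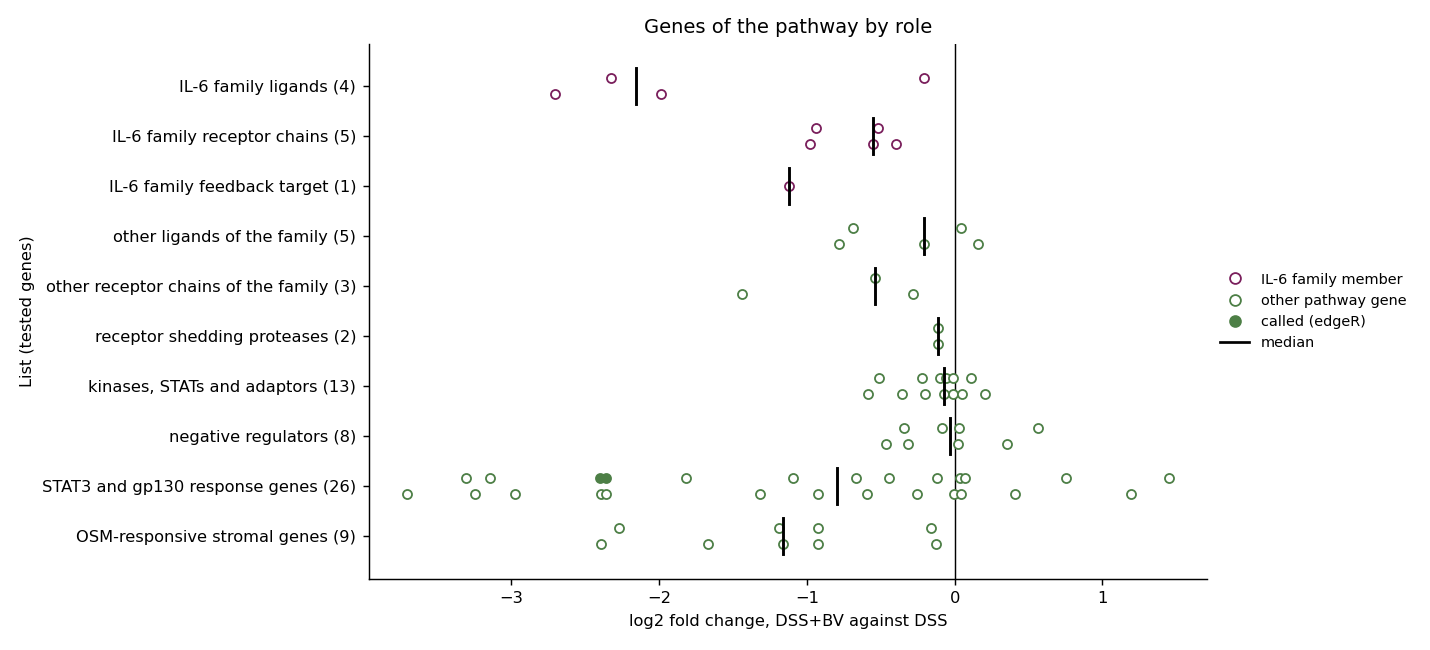
Log2 fold change of DSS+BV against DSS for every tested gene of the IL-6 family and of the pathway lists, with the number tested in brackets and a bar at each list's median. The medians lay near 0 for kinases, STATs and adaptors (-0.07) and negative regulators (-0.03) and at -0.80 and -1.16 for the 2 lists of responding genes, and the filled points are *Timp1* and *Serpina3n*.

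By the root mean square difference of centred log2 CPM over the 6 libraries, the tested genes closest to *Il6* were *Ccl2* (0.333), *Itm2a* (0.381) and *Apod* (0.418). Closest to *Osm* were *Foxc2* (0.111), *AW551984* (0.115) and *Rspo3* (0.157). For *Il11* the nearest were *Ppbp* (0.407), *Mmp10* (0.559) and *Cartpt* (0.574). *Socs3* was followed most closely by *Gpr182* (0.132), *Mgp* (0.172) and *Cebpd* (0.187). The log2 CPM used a prior count of 2, which shrinks differences between libraries for genes with few reads. Among the genes named, *Foxc2* ran from 0.0632 to 1.40 CPM, *Ppbp* from 0 to 3.48 CPM and *Cartpt* from 0.0660 to 2.91 CPM, so their distances are affected. *Osm* itself ran from 0.379 to 3.44 CPM and *Il6* from 0.569 to 10.01 CPM, so every distance from these genes is affected too.

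Markers of several cell types of the colon wall also differed in level between the groups. In bulk tissue, fewer cells of a type and less RNA per cell cannot be told apart. The 10 fibroblast markers were lower in 10 of 10 with a median log2 fold change of -0.90, and their summed level was 4131 to 4470 CPM in DSS against 1654 to 2398 CPM in DSS+BV. For example, the collagen gene *Col1a1* was at 250 to 373 CPM in DSS against 105 to 162 CPM in DSS+BV. Endothelial markers were lower in 8 of 8 (median -0.63) and summed to 354 to 460 against 235 to 312 CPM, and enteric neuron and glia markers in 9 of 9 (median -1.73), 61.3 to 228 against 41.5 to 45.3 CPM. None of these 3 sums overlapped between groups. Single genes had groups apart in the lower direction for 5 fibroblast, 4 endothelial and 7 neuron and glia markers, against 11.3% of all tested genes. *Pecam1* of the endothelium was at 86.0 to 120 against 47.0 to 89.0 CPM and the neuronal gene *Elavl4* at 2.87 to 20.7 against 1.78 to 2.47 CPM. The 14 colon epithelium markers went the other way, higher in 14 of 14 with a median of 0.52. They summed to 12768 to 21578 CPM in DSS against 22306 to 41674 CPM in DSS+BV. *Muc2* (2339 to 10171 CPM in DSS against 6878 to 20700 CPM in DSS+BV) and *Car1* (825 to 1041 against 924 to 10453 CPM) weighed heavily in that sum. Each of these genes overlapped between groups. Of the 14 markers, 6 had groups apart in the higher direction, against 6.37% of all tested genes. *Epcam*, a defining marker of epithelium, was present in every library, at 1264 to 1474 CPM in DSS against 1364 to 1749 CPM in DSS+BV.

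Of 10 neutrophil markers tested, 9 were lower, with a median log2 fold change of -3.70. Groups were apart in the lower direction for 7, against 11.3% of all tested genes. edgeR called 5 of them lower (*S100a8*, *S100a9*, *Retnlg*, *Mmp8* and *Cxcr2*), against 0.0892% of all tested genes. Among them, *S100a8* was at 30.4 to 46.3 CPM in DSS against 1.47 to 2.09 CPM in DSS+BV. *Elane* was at 0 in every library. The genes of this list with the highest CPM overlapped. *Ly6g* had 76.1 to 854 CPM in DSS against 19.1 to 303 CPM in DSS+BV, and *Cd177* 74.1 to 308 against 99.4 to 282 CPM (log2 fold change 0.23). With them, the summed level of the list overlapped too, at 512 to 1124 against 214 to 608 CPM. Macrophage and monocyte markers were lower in 13 of 13 (median -0.89), summing to 933 to 2093 against 571 to 1457 CPM, with *Cd68* at 27.5 to 50.9 against 16.1 to 44.9 CPM. B and plasma cell markers were lower in 8 of 8 (median -0.81), at 812 to 1961 against 484 to 1450 CPM, with *Jchain* at 533 to 1378 against 235 to 937 CPM. T cell markers were lower in 4 of 7 (median -0.22), at 30.8 to 68.1 against 30.3 to 70.6 CPM, with *Cd3e* at 1.99 to 4.48 against 2.36 to 4.82 CPM. Smooth muscle markers were lower in 7 of 8 (median -0.17), at 3326 to 4099 against 2421 to 3986 CPM, with *Myh11* at 826 to 991 against 744 to 910 CPM. The part of any cell type in the levels of the IL-6 family genes was not tested.

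**Figure D5:**
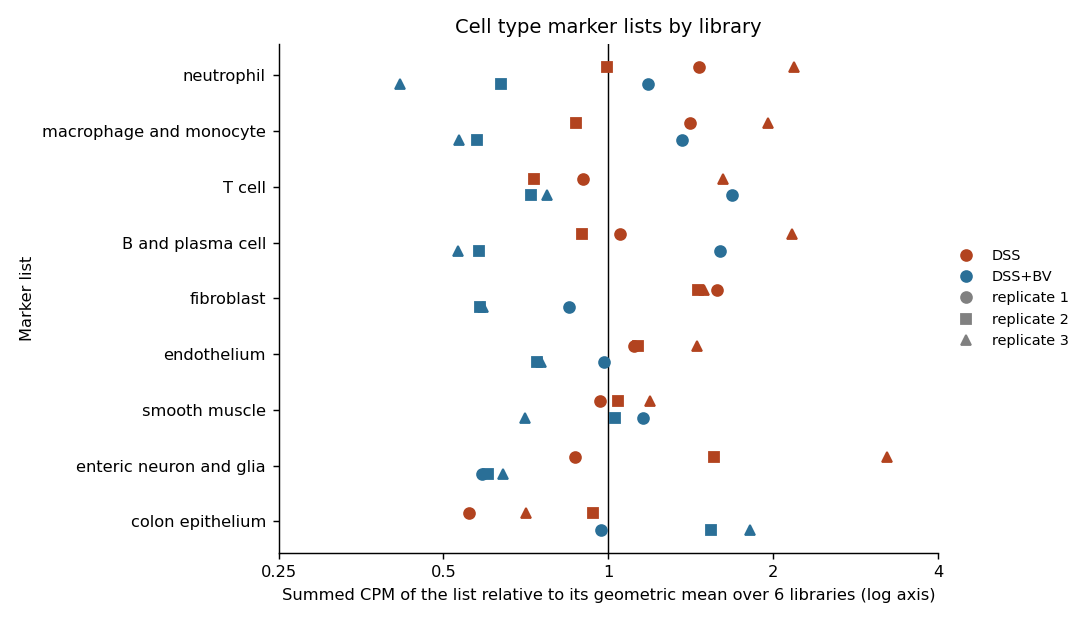
Summed CPM of each cell type marker list in each library, relative to the list's geometric mean over the 6 libraries (log axis). The fibroblast, endothelial and enteric neuron and glia sums were lower in all 3 DSS+BV libraries, and the epithelial sum was higher in all 3. The immune and smooth muscle sums overlapped, although 7 of the 10 neutrophil markers tested were lower in all 3, against 11.3% of all tested genes.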

How the data were processed

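Colon RNA of 3 DSS and 3 DSS+BV mice was sequenced. The authors deposited a table of expected counts per gene for each library, with Entrez identifiers and symbols. Per the submitters' processing notes, HISAT2 2.1.0, Bowtie2 2.2.5, RSEM 1.2.8 and GRCm38.p6 were used; the annotation release is not given in the sources used here. RSEM divides reads shared by several genes among them, so 1573 genes had a value that was not whole, and values were rounded before testing. Groups came from sample titles.

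Genes were filtered with filterByExpr (minimum count 10, minimum total 15), scaled by TMM and tested with edgeR 4.0.16 (glmQLFit and glmQLFTest, R 4.3.3) over all 14579 remaining genes, with Benjamini-Hochberg adjustment. Calls required adjusted p below 0.05 and more than a log2 fold change of 1 in either direction. The common biological coefficient of variation was 32.1%. CPM are counts over TMM-scaled library totals. Gene positions on GRCm38.p6 came from RefSeq, and strands and exon lengths from GENCODE M21. The depth of 15293276 to 17254343 counts leaves *Il6* and *Osm* with few reads per library. Alternatives were DESeq2 1.42.0 on unfiltered genes, limma 3.58.1 (voom), other scalings and filters, a replicate block, and leaving out libraries. The code was tested on simulated data.

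The genes named were the 10 members; of each pathway list, every called gene and the 3 with the smallest edgeR p; the 3 genes nearest in pattern to *Il6*, *Osm*, *Il11* and *Socs3*; and 1 or 2 defining genes of each marker list. *Saa3* and *Reg3b* are named as extremes of their list, *Icam1* and *Pdpn* as shared by 2 lists, and the neutrophil markers beyond that number for their calls or levels, after their values were seen. 1 gene that the rule names is not reported here. Members and lists were chosen with earlier results of these data known, and so was the pair of libraries left out together; the overlap count without that pair was added after seeing the data. The p-values set the difference between groups against the variation between single mice, and do not themselves measure that variation.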

Additional observations from a re-analysis of the deposited data

How the results depend on the processing

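Over 17 alternatives each, the log2 fold changes of the 10 genes kept their sign except that of *Lif*, which ranged from -0.42 to 0.0097 when each library was left out in turn, the latter without DSS+BV replicate 3. The count of called IL-6 family genes, 0 as reported and also 0 with limma-voom, was 3 with DESeq2 and 1 without DSS replicate 2 and DSS+BV replicate 1 together. Genes called lower numbered 13 as reported, 280 with DESeq2, 0 to 3 when each library was left out in turn and 333 without both libraries. Genes called higher numbered 0 as reported, 45 with DESeq2, 0 to 4 when each library was left out and 282 without both. Of the pathway genes 2 were called as reported, 13 with DESeq2, 1 with a filter of CPM of at least 1 in at least 3 libraries, 0 when any library was left out and 11 without both. The replicate numbers are not stated to pair mice. Deviations of same-numbered libraries from their group means correlated at 0.27, 0.25 and -0.30. These 3 values cannot decide whether such libraries share a batch or cage, and that was not tested. With the replicate block, 0 genes were called lower, 0 higher, and 0 of the pathway genes. The causes of these shifts were not tested. Among the 10 genes, depth limits *Osm* (6 to 59 reads per library) and *Il6* (9 to 161) most.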

Other observations

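Ratios of family genes within a library, chosen after the values were seen, gave each mouse's balance of related genes. The log2 ratio of *Osm* to its neighbour *Lif* was -2.24 ± 0.62 in DSS and -4.03 ± 0.20 in DSS+BV (SD, n = 3 each), and that of *Osmr* to its neighbour *Lifr* was 0.78 ± 0.18 and 0.25 ± 0.10. The log2 ratio of *Il6* to *Il6ra* was -1.31 ± 1.39 and -3.27 ± 0.56, and that of *Osm* to *Osmr* was -4.50 ± 0.25 and -5.65 ± 0.35. Each of these 4 ratios was lower in every DSS+BV mouse, and each had a two-sided exact permutation p = 0.1, the smallest that 3 mice against 3 allow (adjusted 0.175 over the 7 ratios computed). The ratios of *Il11* to *Il11ra1*, *Lif* to *Lifr* and *Il6st* to *Osmr* overlapped between groups, with differences of -1.91, 0.12 and -0.11 on the log2 scale.

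*Reg3b* and *Reg3g*, antibacterial lectins of the epithelium on the list of STAT3 and gp130 response genes, did not follow the groups. *Reg3b* showed 10.8, 670 and 31.9 CPM in DSS 1, 2 and 3, against 20.4, 831 and 1096 CPM in DSS+BV 1, 2 and 3. *Reg3g* showed 4.19, 201 and 10.3 CPM against 5.87, 175 and 313 CPM. Both were high in DSS 2, DSS+BV 2 and DSS+BV 3, which formed one branch of the clustering. Their log2 fold changes were 1.45 (SE 1.71) and 1.195 (SE 1.63), with edgeR adjusted p = 0.750 and 0.787. These genes were picked after their values were seen.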
